A study of Mus musculus with 24 samples.

Results

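The genes that encode the proteins of the cytosolic ribosome were examined for how open their chromatin is in donor blood stem and progenitor cells. Their regions are the 74 of 13910 ATAC-seq regions found no further than 1 kb from either end of a protein-coding gene named Rpl or Rps with a number, or Rpsa, Rplp0, Rplp1 or Rplp2. Pseudogene names and the S6 kinase genes were left out. Of the 89 genes that meet this rule, 71 (79.8%) have a region, against 38.4% of all 21900 protein-coding genes and 53 of the 78 genes (68.0%) for proteins of the mitochondrial ribosome. Rps19bp1 meets the naming rule although it encodes a protein that binds Rps19 and not a ribosomal protein.

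ATAC-seq reads where a transposase can cut the DNA, so that a high count marks open chromatin. In each experiment marrow from WT mice carrying the CD45.1 blood cell marker was transplanted into young CD45.2 recipients that were either WT or IκB–, and donor cells were sorted from the femur and tibia 13 to 15 weeks later. IκB proteins hold the NF-κB transcription factors inactive, but the labels do not describe the genetic change, its promoter or the cells it reaches, so IκB– is used here only as a name for the recipient. Every library is therefore of WT donor cells, and the recipients alone differ in genotype. The 4 subsets were taken from cells that lack lineage markers and carry Sca1 and much cKit: long-term haematopoietic stem cells (HSC) and MPP2, MPP3 and MPP4 multipotent progenitors. MPP2 were Flt3–, CD150+ and CD48+, MPP3 were Flt3–, CD150– and CD48+, and MPP4 were Flt3+. The protocol gives the HSC gate as Flt3–, CD150– and CD48–, and the group is used under its label. Each of the 8 groups has 3 libraries of 500 to 1500 sorted cells, and the labels do not say whether these came from separate mice, so that p-values measure only the spread between the libraries.

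A ribosome is built from a small subunit that reads the messenger RNA and a large subunit that joins amino acids, and each subunit holds many different proteins. Their genes are scattered over the chromosomes, are active in every nucleated cell and tend to be transcribed from a short promoter whose RNA begins with a C and a run of pyrimidines, the feature by which mTOR signalling controls their translation. Blood formation is sensitive to this machinery: inherited loss of one copy of genes such as Rps19, Rpl5 or Rpl11 causes Diamond-Blackfan anaemia, and blood stem cells keep their rate of protein synthesis low.

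The promoters of 6 members show what these starts look like. The first 3 belong to the members with the highest count per kb among those with an entry in the RefSeq promoter table (GRCm38.p6), and Rpl12 to the lowest. Rps24 and Rpl41 were added after their values were seen, because the comparisons below turn on them. Each line runs from 100 bases before the annotated start to 30 bases after it. Capitals mark the letters CCGGAA (the core of many ETS factor sites) and GGGCGG (the core of SP/KLF sites) on either strand, and runs of a C and 4 pyrimidines that begin within 10 bases of the start. In Rpl41 the letters CCGGAA begin 56 bases and in Rpl37 23 bases before the start.
Rpl37: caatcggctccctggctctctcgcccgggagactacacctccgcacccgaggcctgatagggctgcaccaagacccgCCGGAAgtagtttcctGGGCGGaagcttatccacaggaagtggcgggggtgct
Rpl13a: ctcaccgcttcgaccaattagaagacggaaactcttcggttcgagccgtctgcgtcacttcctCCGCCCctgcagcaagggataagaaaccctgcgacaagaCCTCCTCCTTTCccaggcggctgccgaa
Rpl34: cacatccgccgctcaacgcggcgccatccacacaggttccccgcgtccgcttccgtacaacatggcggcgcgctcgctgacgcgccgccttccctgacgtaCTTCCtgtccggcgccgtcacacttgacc
Rpl12: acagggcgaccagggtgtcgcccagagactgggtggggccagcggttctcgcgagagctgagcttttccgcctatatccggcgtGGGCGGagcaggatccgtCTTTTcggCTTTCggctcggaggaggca
Rps24: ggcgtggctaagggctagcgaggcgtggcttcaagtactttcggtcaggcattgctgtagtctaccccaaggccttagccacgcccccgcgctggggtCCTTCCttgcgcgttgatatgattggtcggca
Rpl41: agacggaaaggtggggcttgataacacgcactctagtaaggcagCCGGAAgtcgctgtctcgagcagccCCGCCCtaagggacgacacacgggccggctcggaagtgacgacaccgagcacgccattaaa
The printed windows lie at chr15:5116513-5116642 (plus strand) for Rpl37, chr7:45128716-45128845 (minus strand) for Rpl13a and chr3:130730369-130730498 (minus strand) for Rpl34. They lie at chr2:32961612-32961741 (plus strand) for Rpl12, chr14:24490578-24490707 (plus strand) for Rps24 and chr10:128549139-128549268 (minus strand) for Rpl41. The annotated starts of Rpl34 and Rps24 fall at or beside a pyrimidine run, which is capitalised, while those of Rpl37 and Rpl41 have no such run within 10 bases.

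Over the 48 members that lie at an annotated start, with the whole 300-base promoter window searched on both strands, CCGGAA was found in 24 (50%). It was found in 34.4% of 6722 other promoters that have a region and in 14.9% of all 32851 promoters in the table. GGGCGG was found in 66.7%, against 73.8% of the other promoters with a region and 35.7% of all. AAGATGGC, the core of YY1 sites, was found in 6.25% of the members and 5.53% of the other promoters with a region. CACGTG, the E-box bound by MYC among others, stood in 6.25% against 10.95%, and TATAAA in 8.33% against 5.13%. The longer NF-κB motif was matched in 2 member promoters (4.17%), against 4.49% of the other promoters with a region, and the NRF1 motif in 1. A C followed by 4 pyrimidines began within 10 bases of the start in 27 members (56.3%), against 31.5% of the other promoters with a region, and the start base itself was C in 35.4% against 13.6%. The promoters had a median GC content of 59.3%, against 62.7%. A match describes letters only, and was not tested as a site.

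**Figure D1:**
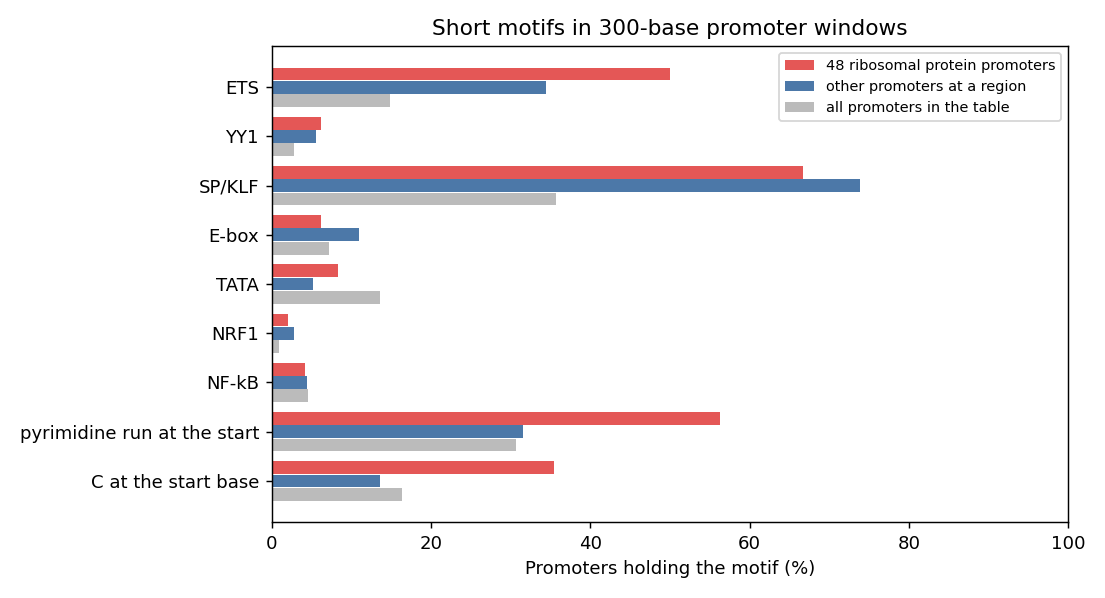
Share of promoter windows (horizontal axis, %) that hold each motif, for the 48 ribosomal protein promoters at a region, other promoters at a region and all promoters in the RefSeq table. The pyrimidine run at the start, a C at the start base and the ETS core are at higher shares in the ribosomal protein promoters (56.3%, 35.4% and 50%) than in other promoters at a region (31.5%, 13.6% and 34.4%).

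The rule required closeness to either end of a gene, and most members lay at an annotated start. Of the 74 members, 66 overlap a gene end, and 48 lie within 100 bp of an annotated start, of which 44 cover the start base. In these 48 the centre of the region was a median of 36 bp upstream of the start, 39 were centred upstream and 37 were centred within 100 bp of it. Another 19 lie at an end of a gene whose strand was not available, 6 lie at a gene end over 1 kb from an annotated start and 1, that of Rps26, lies within 1 kb of its start. The largest distance from a gene end was 610 bp, at Rpl38, and the nearest regions outside the limit were those of Rpl7l1 at 1090 bp and Rpl22 at 1175 bp. Another protein-coding gene was close by for 18 members (24.3%), which lie within 1 kb of it, against 17.7% of the other gene-end regions. These include Rpl37 (beside Card6), Rps21 (beside Cables2), Rpl15 (beside Nkiras1) and Rpl36al (beside Mgat2), and their counts cannot be assigned to either gene. The members lie on 18 chromosomes, with 3 on X.

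**Figure D2:**
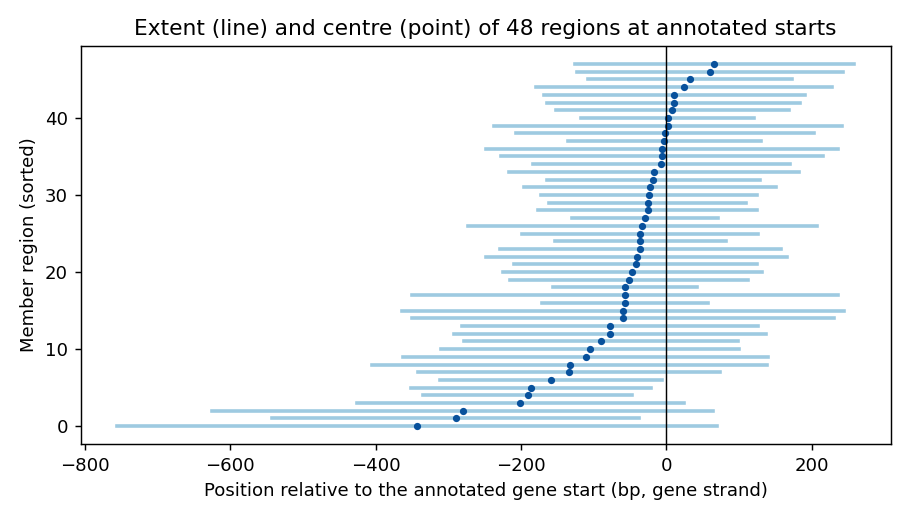
Extent (lines) and centre (points) of the 48 member regions at an annotated start, in bp from that start along the gene's strand (horizontal axis), sorted by centre (vertical axis). Most lines cross the start (44 of 48) and 39 of the centres lie upstream of it.

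Counts per library summed to 121599 to 963699 over all regions, and mitochondrial regions took 1.40% to 11.96% of them. The members received 519 to 5246 counts per library, a median of 17.8 counts per region and library. Libraries 2 and 3 of MPP3 from WT recipients differed by no more than sampling noise (chi-square test over 13126 regions, p = 0.348; divided by its degrees of freedom, the statistic was 1.44 and 1.58 when each was compared with library 1) and were counted as 1 sample, which leaves 23 replicates. Replicate 3 of HSC from IκB– recipients stood apart. It had the highest share of nuclear counts near gene ends, 73.8%, and 61 of the 72 tested members were above their mean in it, by a median of 0.50 on the log2 scale against 0.21 for other gene-end regions. Of the markers, Flt3 regions summed to 174 counts scaled to 1000000 per library (CPM) in MPP4 and 91.2 in HSC, and the 1 region at Slamf1, which encodes CD150, had 22.6 CPM in HSC and 19.0 in MPP2, against 2.98 in MPP3 and 12.3 in MPP4. The regions at the HSC markers Mecom, Hlf and Meis1 did not follow the label: their mean in HSC (86.1, 35.95 and 120.8 CPM) was below that in each other subset (at least 101, 43.3 and 126 CPM), with overlapping ranges. No region lay at the T cell or stromal markers, and those at Pax5, Klf1, Epor and Csf1r were the only ones at the listed B cell, erythroid and myeloid markers.

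The ribosomal protein regions were about as open as other regions at gene ends. Mean CPM per kb of region ran from 87.3 to 298, a 3.42-fold span, with a median of 167. The 7543 other gene-end regions had a median of 161, the 59 regions of mitochondrial ribosomal proteins 157, and the 6288 nuclear regions away from gene ends 126. Of the members, 38 lay above the median of other gene-end regions, and 53.7% of those regions lay below the median member. The regions were somewhat narrower, with a median width of 356 bp against 404 bp. In a sorted population, fewer cells with an open region and a less open region in each cell cannot be told apart.

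Rpl37 was the highest member at 298 CPM per kb, followed by Rpl13a at 279, Rpl34 at 249 and, within the first 5, Rps21 at 247.7. Rpl37, Rpl13a and Rpl34 encode proteins of the large subunit, and Rps21 of the small one. At the other end lay Rpl23a at 87.3, a protein beside the exit tunnel, Rpl8 at 88.8, Rpl32 at 90.1, Rpl12 at 102 and a second region of Rps18 at 104. Neighbours in this order differed by less than their spread over the 23 replicates. The region of Rpl32 and 1 of the 2 regions of Rps18 did not pass the filter on low counts, so 72 members were tested.

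**Figure D3:**
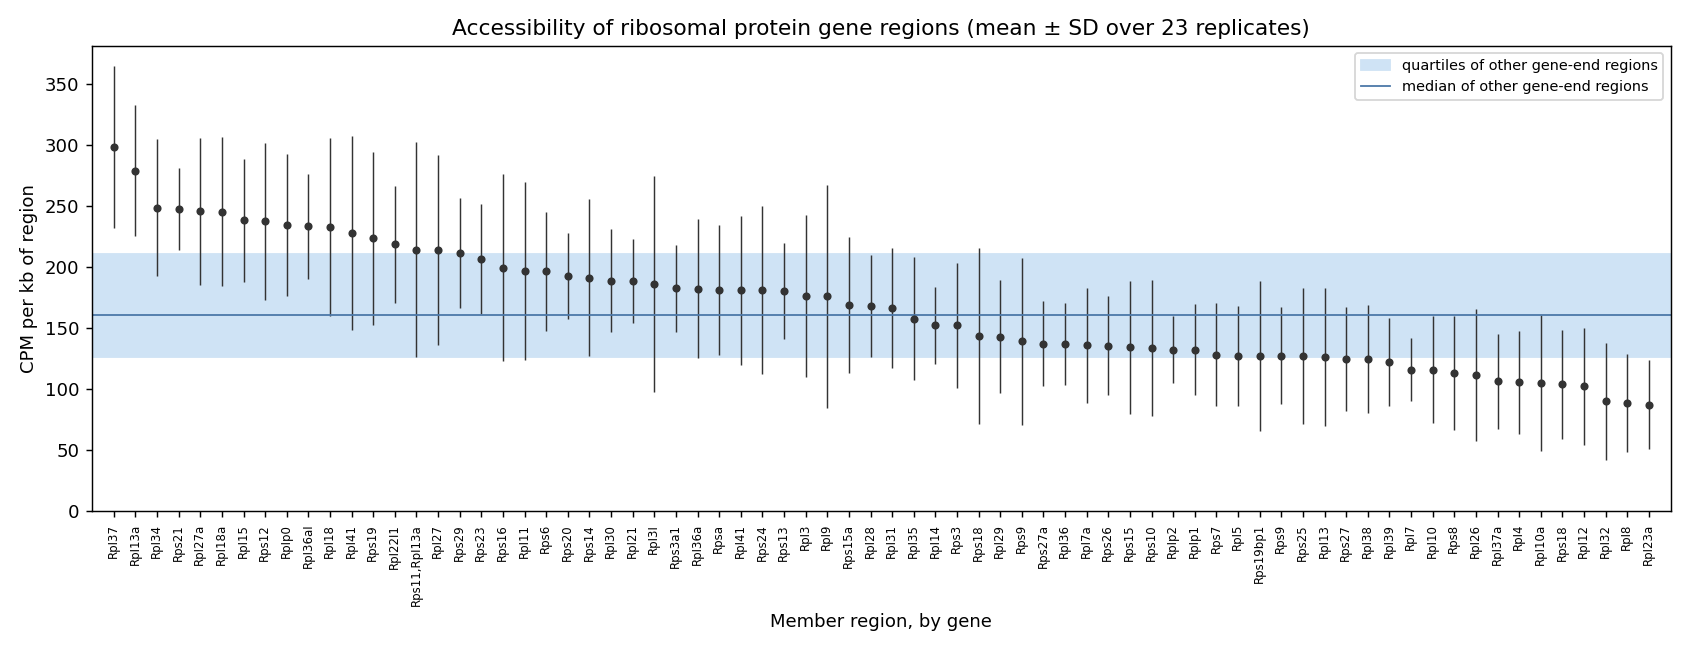
Mean CPM per kb of region (vertical axis) of 72 of the 74 members, ordered from highest to lowest and named by gene; bars are the SD over 23 replicates. The band holds the middle quartiles and the line the median (161) of other gene-end regions, and the members run from 298 (Rpl37) to 87.3 (Rpl23a).

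The genes known from inherited or acquired anaemia ran from 112 to 223.5 CPM per kb and reached neither end of the range. Of the 11 listed, 10 have a region and Rpl35a has none. Rps19, the gene most often mutated in Diamond-Blackfan anaemia, was highest at 223.5 CPM per kb. Rpl11 and Rpl5, whose proteins can bind Mdm2 and so restrain p53 turnover, stood at 197 and 127. Rps14, lost in the deletion of the long arm of chromosome 5 that causes a myelodysplastic syndrome, stood at 191. Rps24 stood at 181, Rps26 at 135.5, Rps10 at 134, Rps7 at 128 and Rpl26 at 112. Among X-linked genes Rpl36a had 182, Rpl39 122 and Rpl10 116 CPM per kb, and Rps4x had no region. Of 10 listed paralogues that stand beside a family member, 9 are in the gene table and 4 have a region: Rpl36al at 233, Rpl22l1 at 219, Rpl3l at 186 and Rps27 at 125. The region of Rpl3l, the striated-muscle paralogue of Rpl3, lies at its end beside Msrb1. The genes without a region were Rpl6, Rpl17, Rpl19, Rpl22, Rpl23, Rpl24, Rpl35a, Rps2, Rps28 and Rps4x, together with the paralogues or related genes Rpl7l1, Rpl10l, Rpl32l, Rpl37rt, Rpl39l, Rps23rg1, Rps27l and Rps27rt.

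Whether the marrow of IκB– recipients left a mark on donor cells was tested in each subset and over the 4 subsets together. No member passed the test in any of these comparisons. By edgeR's quasi-likelihood test, at a Benjamini-Hochberg adjusted p under 0.05 over 13325 regions, 0 of 72 members were called in HSC, where 0% of all regions were called. The count was likewise 0 for MPP2 (all regions 0%), for MPP3 (0.21%), for MPP4 (0.045%) and for the mean over the 4 subsets (1.73%). At an unadjusted p under 0.05 there were 4 members for HSC (6.31% of all regions), 4 for MPP2 (3.65%), 0 for MPP3 (9.52%), 2 for MPP4 (7.10%) and 5 for the mean (14.3%). DESeq2 and limma-voom also called 0 members in each. In simulated data the test found 81.0% of 2-fold changes placed in the mean recipient effect, but 10.5% of those placed in the MPP3 effect alone, so that differences of this size within 1 subset can be missed.

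In MPP2 most members had estimates below 0 in IκB– recipients. Their summed share of nuclear counts was 0.546%, 0.526% and 0.577% in WT recipients and 0.463%, 0.476% and 0.506% in IκB– recipients. The WT libraries were all above the IκB– libraries. The same held for their share of the counts near gene ends, at 0.810%, 0.777% and 0.850% against 0.692%, 0.731% and 0.751%, so the difference was also present relative to other gene-end regions. Fitted log2 fold changes (IκB– over WT) were below 0 at 52 of 72 members (72.2%), against 53.0% of other gene-end regions, with a median of -0.28 against -0.02. The middle of the members ran from -0.48 to 0.04, and the median standard error of a single member was 0.35. Large subunit genes were lower at 32 of 42 regions (median -0.28) and small subunit genes, Rps19bp1 counted among them, at 20 of 30 (median -0.28). Leaving out any 1 replicate gave medians of -0.29 to -0.19 and 65.3% to 77.8% of the members lower. No single member passed the test.

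**Figure D4:**
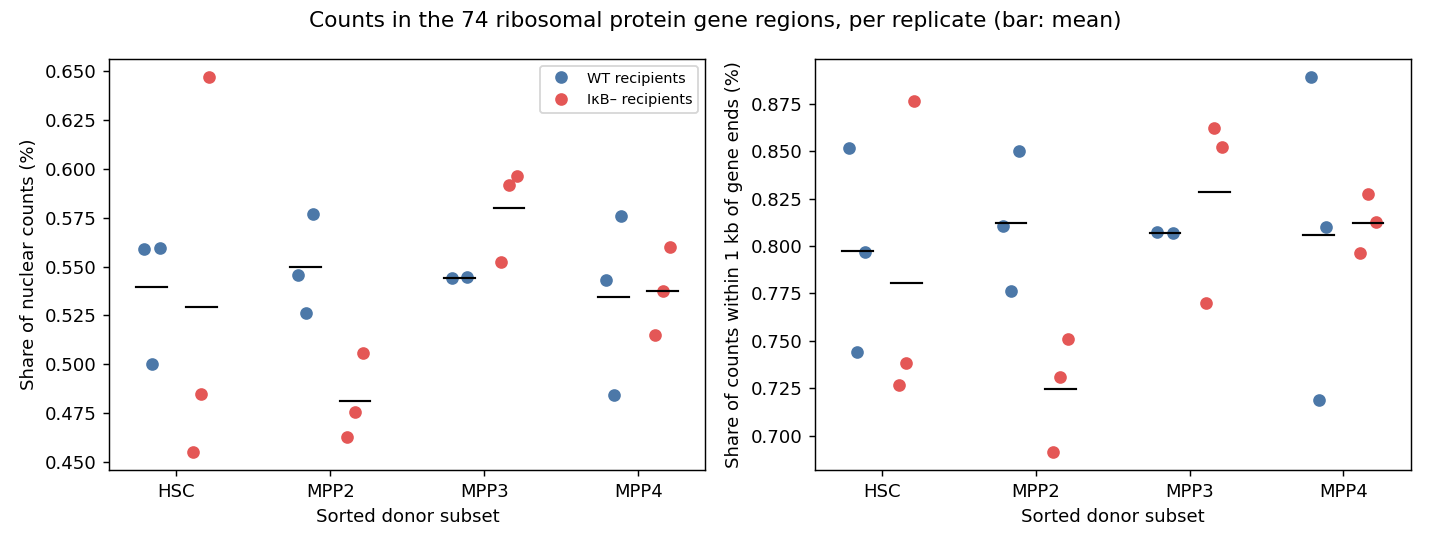
Share of each replicate's counts that fell in the 74 member regions, as a percentage of all nuclear counts (left) and of counts within 1 kb of gene ends (right), by sorted subset and recipient; points are replicates and bars are group means. In MPP2 the 3 points of WT recipients lie above the 3 of IκB– recipients in both panels (0.526% to 0.577% against 0.463% to 0.506% of nuclear counts), in MPP3 those of IκB– recipients lie above those of WT recipients in the left panel only, and in HSC replicate 3 of IκB– recipients lies at 0.647%.

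The region at the start of Rpl41, which encodes a very short peptide of the large subunit, had the smallest p among the members that were lower in MPP2. It had 97.9, 69.7 and 82.5 CPM in WT recipients and 34.8, 22.0 and 61.4 CPM in IκB– recipients, and the groups did not overlap. The log2 fold change was -1.005 ± 0.352 (SE, n = 3 and 3), with an adjusted p of 0.999 by edgeR's quasi-likelihood test. The other Rpl41 region, at the far end of the gene beside Zc3h10, had 109, 66.7 and 49.5 CPM against 73.7, 58.7 and 48.1, and there the groups overlapped.

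In all, 7 of 72 members (9.72%) were lower in every IκB– library of MPP2 than in any WT library, against 5.6% of all regions, and 2, Rpl36al among them, were higher in every one, against 6.18%. The 7 were Rpl41, Rpl10, Rpl14, Rpl23a, Rpl37, Rpl7a and Rplp2. Rpl37, the most open member, had 164, 188 and 225 CPM in WT recipients and 143, 162 and 136 in IκB– recipients. Rplp2, a protein of the stalk that recruits elongation factors, had 68.1, 69.7 and 77.0 against 44.5, 22.0 and 66.8 CPM. The lowest IκB– value of Rplp2 and of Rpl41 was that of replicate 2, whose total count was 146732. Rpl10, a large subunit protein that joins late in assembly, had 121, 97.0 and 110 against 57.0, 58.7 and 85.4 CPM, a log2 fold change of -0.71 ± 0.34 (SE).

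In the other subsets the members were close to other gene-end regions. In HSC 31 of 72 members were lower in IκB– recipients (median log2 fold change 0.07, other gene-end regions 0.04), in MPP3 32 (0.04 and 0.08) and in MPP4 39 (-0.02 and -0.02). Over the 4 subsets 38 were lower, with a median of -0.03 against 0.01. The HSC value depended on replicate 3 of IκB– recipients: without it the median was -0.20 and 68.5% of the members were lower. The summed share of nuclear counts in HSC was 0.559%, 0.500% and 0.560% in WT recipients and 0.455%, 0.485% and 0.647% in IκB– recipients, so the groups overlapped. In MPP3 the shares were 0.544% and 0.545% in WT and 0.552%, 0.592% and 0.597% in IκB– recipients, so that the IκB– libraries were all above the WT replicates. As a share of counts near gene ends the MPP3 groups overlapped, at 0.807% in both WT replicates and 0.770%, 0.862% and 0.852% in IκB– recipients. In MPP4 they were 0.543%, 0.484% and 0.576% against 0.515%, 0.538% and 0.560%. A test of whether the recipient effect differed between subsets called 0 of 72 members (0% of all regions), with 1 member, Rpl3l, at an unadjusted p under 0.05 (4.05% of all regions). MPP2 is therefore not shown to differ from the other subsets at any member.

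**Figure D5:**
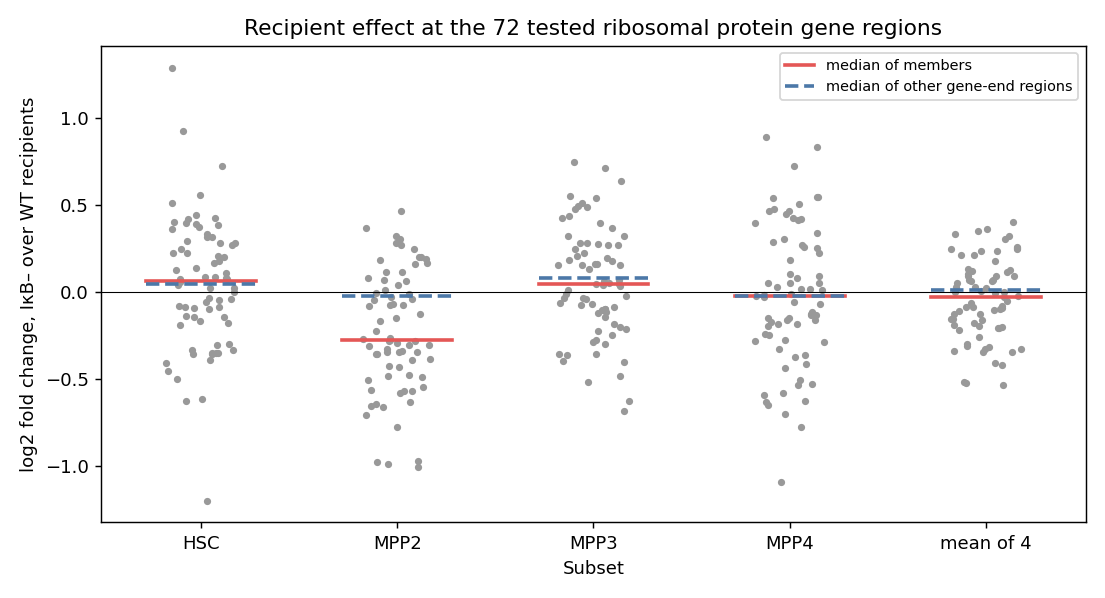
Log2 fold change of IκB– over WT recipients (vertical axis) at the 72 tested members, 1 point each, within each subset and averaged over the 4 subsets. Solid lines are the medians of the members and dashed lines those of other gene-end regions; they stand at -0.28 and -0.02 in MPP2 and lie close together in the other columns.

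In MPP3, 16 of 72 members (22.2%) were higher in every IκB– library than in either WT replicate, against 12.5% of all regions. Another 5 (6.94%) were lower in every one, against 15.7%. All members lie at gene ends, where other regions also leaned higher in MPP3 (median 0.08), while regions away from gene ends leaned lower (-0.16). The members' own median was 0.04. Here and in the other subsets, the share among other gene-end regions alone was not counted. Rpl27a was among the higher ones, at 116 and 125 CPM in WT and 182, 134 and 187 CPM in IκB– recipients (log2 fold change 0.48 ± 0.26, adjusted p = 0.581 by edgeR's quasi-likelihood test). Rps19 was another, at 148 and 147 CPM against 168, 232 and 233. Rps26 was among the lower ones, at 58.8 and 55.1 CPM against 24.9, 51.6 and 35.2 (log2 fold change -0.68 ± 0.34, adjusted p = 0.537). In HSC 2 members (Rpl13 and Rps21) did not overlap on the lower side, against 4.4% of all regions, and 2 (Rps13 and Rps15a) on the higher side, against 4.11%. In MPP4 there were 4 on the lower side, against 5.85% of all regions, and 5 on the higher side, against 6%.

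Rpl27a and Rpl13 had the smallest p in either direction for the mean recipient effect. Rpl27a, a large subunit protein, was fitted higher in IκB– recipients by 0.35 ± 0.13 on the log2 scale, with an adjusted p of 0.185 by edgeR's quasi-likelihood test and 0.0985 to 0.409 over the alternatives. In HSC it had 116, 145 and 132 CPM in WT and 131, 107 and 231 CPM in IκB– recipients, and in MPP4 76.5, 115 and 148 against 142, 129 and 222 CPM, so the groups overlapped in both. Rpl13 was fitted lower by 0.54 ± 0.25 (adjusted p = 0.311). In HSC it had 9, 13 and 10 counts in WT recipients (55.0, 50.8 and 47.2 CPM) and 0, 1 and 10 counts in IκB– recipients (0, 8.93 and 44.4 CPM), so that its estimate rests on a handful of reads, and without replicate 3 of IκB– HSC its adjusted p was 0.0565.

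Rpl3l gave the smallest p of the members in HSC, at 36.7, 23.5 and 42.5 CPM in WT and 68.8, 17.9 and 133 CPM in IκB– recipients. The highest and the lowest of these 6 values both came from IκB– recipients, and the log2 fold change was 1.29 ± 0.47 (SE, adjusted p = 0.707 by edgeR's quasi-likelihood test). In MPP4 the far-end region of Rpl41 was fitted higher by 0.83 ± 0.33 (adjusted p = 0.625) and Rpl7, a large subunit protein, lower by 0.58 ± 0.26 (adjusted p = 0.643). The 3 stalk genes Rplp0, Rplp1 and Rplp2 and the anaemia genes were not called in any comparison. Of the 10 anaemia genes 8 had an estimate below 0 in MPP2 (median -0.28), beside 72.2% of all members (median -0.28). In HSC, MPP3 and MPP4 the counts of anaemia genes below 0 were 6, 5 and 5.

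Differences between the subsets were tested with both recipient types averaged. These comparisons share the HSC libraries, so their values are given side by side and not as independent results. Between subsets no member passed the test in the main fit, which has no replicate block. By edgeR's quasi-likelihood test 0 of 72 were called for MPP2 against HSC (0.03% of all regions), MPP3 against HSC (2.57%), MPP4 against HSC (1.27%) and any difference between the 4 subsets (7.18%). At an unadjusted p under 0.05 there were 6, 4, 5 and 3 members in this order, against 8.31%, 14.2%, 12.02% and 18.8% of all regions. The self-test found 45.0% of 2-fold changes placed between MPP3 and HSC. Median log2 fold changes of the members were -0.18, -0.03 and -0.04, against -0.05, -0.03 and -0.06 for other gene-end regions. Estimates were lower than in HSC at 51, 39 and 47 of 72 members (70.8%, 54.2% and 65.3%), against 57.0%, 54.4% and 58.1% of other gene-end regions. Without replicate 3 of IκB– HSC the medians of the members became 0.01, 0.15 and 0.10, and 49.3%, 31.5% and 42.5% of them were lower. With total counts in place of TMM scaling the first median was -0.09 and the second 0.11.

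Rps24, a small subunit protein whose loss causes Diamond-Blackfan anaemia, had the smallest p of the members between subsets. In HSC it had 48.9, 31.3 and 56.6 CPM in WT and 41.3, 26.8 and 53.2 CPM in IκB– recipients. In MPP3 it had 68.3 and 61.2 CPM in WT and 76.6, 84.4 and 73.0 CPM in IκB– recipients, all above every HSC value. In MPP4 the values were 111, 41.7 and 66.8 CPM in WT and 125, 98.8 and 58.6 CPM in IκB– recipients. Of these the 41.7 lay within the range of HSC and the other 5 lay above it. The log2 fold change was 0.69 ± 0.28 for MPP3 (adjusted p = 0.203) and 0.87 ± 0.29 for MPP4 (adjusted p = 0.126), and the joint test gave an adjusted p of 0.139, which ranged from 0.0467 to 0.371 over the alternatives. In a fit that took the replicate number as a block and kept the 2 merged libraries of WT MPP3 apart, 2 members were called for any difference between subsets, Rps24 (adjusted p = 0.0467) and Rpl27 (adjusted p = 0.0411), against 14.9% of all regions in that fit. With these libraries apart and no block, 0 members were called.

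Other members with the smallest p between subsets had estimates in either direction. Rpl11 was fitted lower in MPP2 than in HSC by 0.89 ± 0.30 on the log2 scale (adjusted p = 0.392 by edgeR's quasi-likelihood test). It had 55.0, 50.8 and 61.3 CPM in WT HSC and 25.6, 33.3 and 38.5 CPM in WT MPP2, and 41.3, 44.7 and 57.7 against 29.2, 14.7 and 24.03 CPM in IκB– recipients. The MPP2 values were below the HSC values in both recipient types. Rpl30, a large subunit protein, was fitted higher in MPP2 by 0.50 ± 0.20 (adjusted p = 0.488). Rps6, the small subunit protein phosphorylated by S6 kinases, was fitted lower in MPP3 by 0.55 ± 0.21 (adjusted p = 0.191), and Rpl10a lower in MPP4 by 0.84 ± 0.38 (adjusted p = 0.358).

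The rest of the translation machinery was looked at through 4 lists. Of 59 tested regions at genes of mitochondrial ribosomal proteins, 1 was called in 1 comparison: the region shared by Mrpl32 and Psma2 was lower in MPP3 than in HSC (log2 fold change -0.57 ± 0.16, adjusted p = 0.0481 by edgeR's quasi-likelihood test), where 2.57% of all regions were called. None of 36 regions at ribosome biogenesis genes, 34 at translation factor genes and 15 at genes of regulators of this machinery was called in any comparison, beside the shares of all regions given above. For the recipient effect in MPP2 their medians were -0.08, -0.02, -0.11 and -0.16 in this order, beside -0.28 for the cytosolic ribosomal protein regions. No test compared these lists.

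The split by promoter letters was described in the same way. In MPP2 the 24 members whose promoter holds CCGGAA had a median recipient effect of -0.33 and the 24 without it -0.15. For the letters GGGCGG they were -0.29 in the 32 members with them and -0.10 in the 16 without. In the other subsets, members with CCGGAA likewise had the lower median, while for GGGCGG the direction of the gap differed. With and without CCGGAA the medians were 0.05 and 0.20 in HSC, -0.01 and 0.15 in MPP3 and 0.00 and 0.04 in MPP4. With and without GGGCGG they were 0.10 and 0.05 in HSC, 0.07 and -0.02 in MPP3 and -0.01 and 0.17 in MPP4. For members with and without a pyrimidine run at the start the MPP2 medians were -0.23 and -0.28. Members whose promoter holds GGGCGG had a median level of 181 CPM per kb and those without it 131. In MPP2, members near another gene and members near none both had a median of -0.28.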

How the data were processed

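The deposited table holds raw counts per region, whole numbers for 13910 regions in 24 libraries, with coordinates in mm10. Per the submitters' processing notes, the tools were Bowtie2, SAMtools, Picard, MACS2 2.1.0 and deepTools, with no roles given, so duplicate removal and the transposase offset are not given in the sources used here. Gene names came from a RefSeq table of GRCm38.p6, and starts and strands from its promoter table, which has an entry for 69 of the 89 genes of the rule and for 52 of the 71 with a region. The members, gene lists and tests were chosen with earlier results of these data known.

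Libraries were grouped by their titles. Each pair within a group was compared by a chi-square test over regions with at least 10 counts, and libraries 2 and 3 of WT MPP3 were merged. The whole table was fitted with edgeR 4.0.16 (R 4.3.3): TMM scaling, filterByExpr (13325 regions kept), 8 group means, a robust quasi-likelihood fit with 15 residual degrees of freedom and Benjamini-Hochberg adjustment over all regions, with calls at an adjusted p under 0.05. CPM values use TMM-scaled library sizes. The fit was tested on simulated counts with 200 changed regions. Alternatives were DESeq2 1.42.0, limma 3.58.1 (voom), other scalings, no filter, 24 libraries kept apart, a gene-end covariate, members at annotated starts only, a replicate block and leaving out each replicate.

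The labels number the replicates 1 to 3 in every group. Over the 3 pairs of HSC libraries the correlation of same-numbered deviations was 0.13 to 0.31, so for the recipient effect in HSC the numbers may pair the samples. The values given for that effect come from the main fit, which did not pair them. In the fit with the block 0 members were called there.

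Named members are the 5 highest and 5 lowest, those with the smallest p in each direction per comparison, the anaemia, X-linked and paralogue lists, up to 4 beside another gene, and those whose groups did not overlap in MPP2, which were chosen after their values were seen. For 2 members the single values are not reported here, and they are left out of the plot of levels; all counts and medians include them.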

Additional observations from a re-analysis of the deposited data

How the results depend on the processing

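No member was called in any of the 10 comparisons under 10 alternatives and 23 fits that left out 1 replicate each, except for any difference between subsets with the replicate block, where 2 were called. Block: same-numbered libraries correlated at a median of 0.128 over 84 pairs, of which 51 were over 0.1, and other pairs at -0.0491. Each of the 24 libraries correlated best with its own number, a hint from the data that the labels do not explain. Every pair was over 0.1 only for the HSC recipient effect. Against HSC, 5 of 6 pairs were over 0.1 for MPP2, 4 of 6 for MPP3 and 5 of 6 for MPP4. For the recipient effect it was 2 of 3 in MPP2, 0 of 3 in MPP3 and 2 of 3 in MPP4. The main fit used no pairing in any comparison. Whether the numbers pair the samples is not given in the labels, and the calls between subsets depend on it. Calls over all regions for any difference between subsets were 957, and 1078 with the 24 libraries kept apart, which the block raised to 1938. The median recipient effect in MPP2 was -0.29 to -0.23 over the alternatives other than leaving out replicates. The medians against HSC ran from -0.20 to -0.09 for MPP2, -0.04 to 0.11 for MPP3 and -0.04 to 0.02 for MPP4, and the upper ends for MPP2 and MPP3 came from total-count scaling.

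Leaving out 1 replicate gave medians of -0.20 to 0.18 in HSC, -0.29 to -0.19 in MPP2, 0.01 to 0.12 in MPP3 and -0.13 to 0.06 in MPP4. For MPP2, MPP3 and MPP4 against HSC they ran from -0.24 to 0.0074, -0.10 to 0.15 and -0.13 to 0.10, the upper end in each without replicate 3 of IκB– HSC; the cause was not tested. The members had a median of 17.8 counts per region and library; over regions of any depth, 10.5% of simulated 2-fold differences within MPP3 were found.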
